A study of Homo sapiens with 2 samples.

Results

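The 10 genes described here are the Notch ligands JAG1 and JAG2, the receptors NOTCH1, NOTCH2 and NOTCH3, and the nuclear and effector genes RBPJ, MAML2, HES1, HEY1 and HEYL. They were taken by name, as every probe set whose platform annotation gives exactly 1 symbol equal to one of these genes. That rule found 28 of the 41091 probe sets with 1 symbol, among 54675 on the array. The study holds 2 expression arrays of PLC8024, an established human hepatocellular carcinoma cell line. Both cultures were CD133-negative cells obtained by flow cytometric sorting. By the treatment protocol, one was transduced with a lentivirus carrying miR-130b and the other with the empty lentiviral vector (EV), whereas the source name given to the miR-130b culture calls it a transfection. Total RNA of each was hybridised to 1 array. Neither condition has a replicate, so no difference below has a test, a p-value or a replicate error, and each is a difference between these 2 arrays. The vector cannot be told apart from anything else that differed between the 2 cultures.

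Notch signalling passes between touching cells. A ligand of the Jagged or Delta family on one cell binds a Notch receptor on its neighbour, the receptor is cut by ADAM proteases and then by gamma-secretase, and its intracellular part enters the nucleus. There it joins the DNA-binding protein RBPJ and a Mastermind coactivator such as MAML2 and switches on HES and HEY genes, which encode transcriptional repressors. In liver, JAG1 is best known for bile duct formation: loss of one copy of JAG1, or more rarely of NOTCH2, causes Alagille syndrome, in which bile ducts are scarce.

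The overexpressed molecule is shown first, because its seed, bases 2 to 8, is the part of a microRNA that pairs with target transcripts. Sequences are from RefSeq (GRCh38.p14), written 5′ to 3′ with the seed in capitals. The hairpin of miR-130b gives 2 mature arms, at chr22:21653354-21653375 (3p) and chr22:21653316-21653336 (5p), both on the plus strand.
hsa-miR-130b-3p: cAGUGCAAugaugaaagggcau
hsa-miR-130b-5p: aCUCUUUCccuguugcacuac
hsa-miR-301b-3p: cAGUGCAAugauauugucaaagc
hsa-miR-454-3p: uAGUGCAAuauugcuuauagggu
The 3p arm shares its seed with 5 further mature microRNAs in the table, 2 of which are printed for comparison, while the 5p arm has a different seed. The table held 2370 mature microRNAs, and any absent from it were not considered. Matches to the seed in the transcripts of the 10 genes were not searched for here.

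The levels are the deposited RMA values on the log2 scale, and a difference is the miR-130b value minus the EV value on that scale. A probe set counted as measured when its brighter array reached 4.88, the middle value over the pooled arrays without control probe sets. By that floor 21 of the 28 probe sets, covering 9 of the 10 genes, were measured, and the remaining 7 were not. MAML2 was the gene with no measured probe set. The measured probe set with the highest mean level, called the brightest here, stands for its gene. The only technical error to hand is how far probe sets of one gene disagree in their difference. The SD, pooled over the 6047 genes that have 2 or more measured probe sets, was 0.202, and the median SD of these genes was 0.122. Neither value holds variation between cultures.

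The sorted cells matched their label in part. All 7 hepatocyte markers examined were above the floor on both arrays. Of 4 epithelial markers, 3 were above it on the miR-130b array and 4 on the EV array, the exception being EPCAM, at 4.09 on the miR-130b array and 5.25 on the EV array. Most of these markers were lower on the miR-130b array along with JAG1: TTR differed by -3.34, EPCAM by -1.16, KRT8 by -1.05, ALB by -1.03 and CDH1 by -0.82. AFP, APOA1 and KRT18 differed by -0.57, -0.51 and -0.27, while SERPINA1, TF and FGB differed by 0.08, 0.03 and 0.01. The part of whatever moved these markers in the JAG1 difference was not tested. The leukocyte gene PTPRC and the endothelial gene CDH5, both defining markers, were below it on both, and LYZ and PECAM1 were above it on both. Of 5 endothelial markers 2 were above the floor on the miR-130b array and 2 on the EV array. Stromal markers were above it for 4 of 5 genes on the miR-130b array and for 3 of 5 on the EV array, and leukocyte markers for 1 of the 4 with a probe set of their own on each. PROM1, which encodes the CD133 antigen the cells were sorted to lack, was at 6.07 on the miR-130b array and 9.19 on the EV array, above the floor on both.

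JAG1 was the only one of the 9 measured genes that differed by more than 1.5-fold in its brightest probe set. Its brightest probe set, 209099_x_at, was at 8.96 on the miR-130b array and 10.84 on the EV array, which is 3.68-fold lower, a difference of -1.88. Of the 13260 measured genes, 76 (JAG1 included, 0.573%) had a difference at or below that value. The share of measured genes at least 1.5-fold lower was 2.68%, and the share at least 1.5-fold higher was 0.294%. Of the 9 measured genes 1 was at least 1.5-fold lower and 0 were at least 1.5-fold higher, so the count over the group rests on JAG1 alone. In RNA of a whole culture, fewer cells that express JAG1 and less JAG1 RNA per cell cannot be told apart.

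JAG1 is covered by 6 probe sets, and they did not give one value. Probe set 216268_s_at read 8.67 on the miR-130b array and 10.70 on the EV array, 4.08-fold lower. Probe set 209098_s_at showed the widest gap, at 5.51 on the miR-130b array and 8.40 on the EV array, 7.38-fold lower. These 2 and the brightest probe set were all at least 3-fold lower on the miR-130b array. Probe set 231183_s_at was at 5.33 on the miR-130b array and 6.91 on the EV array, 2.98-fold lower. In these 4 probe sets the JAG1 signal on the miR-130b array was between 13.5% and 33.6% of the EV signal on the linear scale. Each stayed above the floor on both arrays. However, 209098_s_at and 231183_s_at, which set the 2 ends of that range, were near the floor on the miR-130b array, at 5.51 and 5.33. The 2 other probe sets gave a different picture. Probe set 209097_s_at stood at 5.30 on the miR-130b array and 5.37 on the EV array, a difference of -0.07. Probe set 229924_s_at was below the floor on both arrays, at 4.68 on the miR-130b array and 4.85 on the EV array, a difference of -0.18. Both were near the floor on both arrays.

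**Figure D1:**
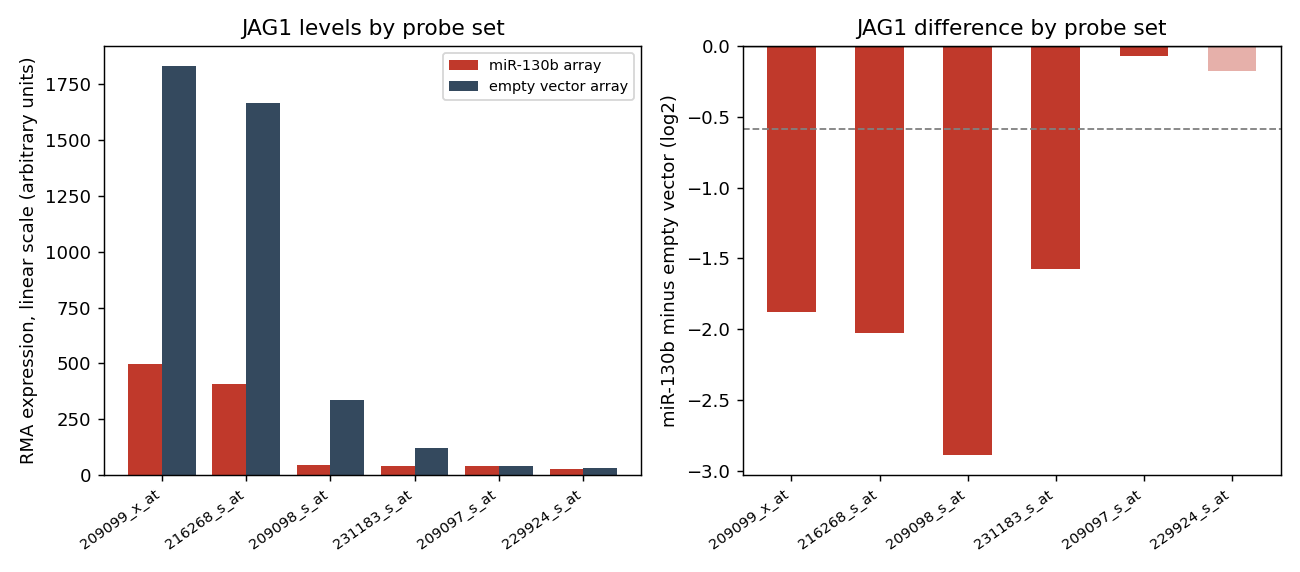
JAG1 by probe set, in the order of its EV level. Left, the RMA value turned to the linear scale (arbitrary units) on the miR-130b array (red) and the EV array (dark). Right, the difference miR-130b minus EV on the log2 scale, with the dashed line at 1.5-fold lower (-0.58) and the pale bar for the probe set below the floor on both arrays. The 4 probe sets with the highest EV level differ by -1.57 to -2.88, and the 2 dimmest by -0.07 and -0.18.

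The spread among the 5 measured JAG1 probe sets was wide for these arrays. Their differences ran from -2.88 to -0.07, with a median of -1.88, a mean of -1.69 and an SD of 1.03 (n = 5 probe sets of the same 2 RNAs, not replicates). With the dim sixth probe set included the SD was 1.11. Among the 358 genes that have 5 or more measured probe sets, the median SD was 0.155, and the SD of JAG1 was the fourth largest: 4 genes, JAG1 included, had an SD at or above it. By the median of the probe sets, JAG1 was the third lowest of the same 358 genes. Other strongly lower genes also had probe sets that disagreed. Of 25 genes with at least 3 measured probe sets and a brightest probe set at least 2-fold lower, 6 (24.0%, JAG1 included) had a measured probe set with a difference above -0.1. The median SD of the 25 genes was 0.584, and 5 of them, JAG1 included, had an SD at or above that of JAG1. All 6 JAG1 probe sets carry a suffix by which the array's naming marks probes that match several transcripts (5 with _s_at) or may cross-hybridise (1 with _x_at), so no suffix-free probe set speaks for JAG1. Control probe sets also differed in the 5′ part of transcripts: ACTB had a 3′ to 5′ ratio of 2.41 on the miR-130b array and 1.95 on the EV array, and GAPDH one of 1.52 on the miR-130b array and 1.37 on the EV array. The positions of the JAG1 probes were not used, and the part of this difference in the JAG1 values was not tested.

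**Figure D2:**
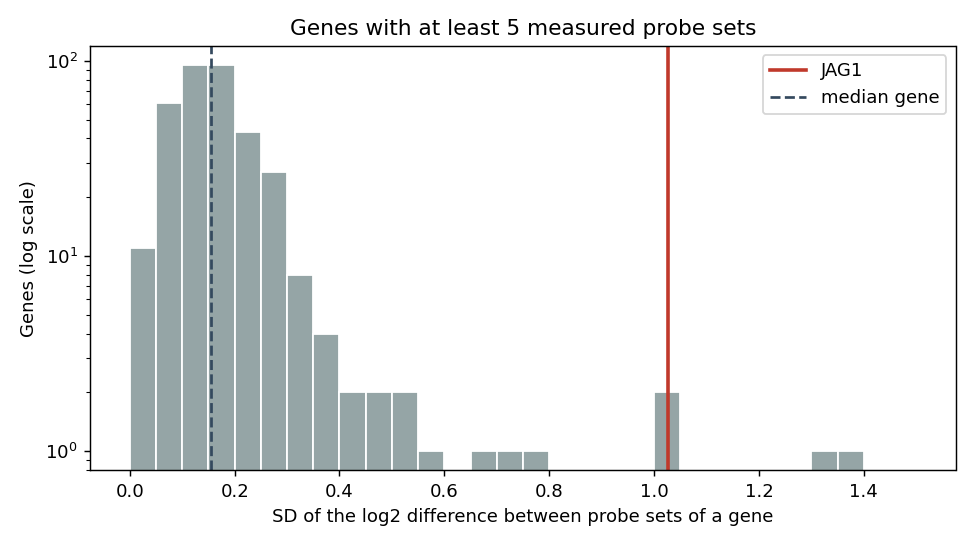
SD of the log2 difference between the probe sets of a gene, for the 358 genes with at least 5 measured probe sets, with the number of genes on a log axis. The dashed line marks the median gene at 0.155 and the red line JAG1 at 1.03, where 4 genes are at or beyond it.

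JAG2, the other Jagged ligand, had nearly the same level on both arrays. Probe set 32137_at was at 6.45 on the miR-130b array and 6.42 on the EV array, and 209784_s_at at 5.88 on the miR-130b array and 5.86 on the EV array. The differences of 0.03 and 0.03 are well within the SD between probe sets of a gene, and 50.8% of measured genes had a difference at or below that of JAG2. No other ligand stood at a JAG1-like difference in its representative probe set. Among the Delta-type ligand genes, DLL1 was not measured, DLL4 differed by -0.11 and DLL3 by 0.27. The noncanonical ligand gene DLK1 had 2 measured probe sets of opposite sign: 235600_at was at 5.46 on the miR-130b array and 5.01 on the EV array, a difference of 0.44, and 209560_s_at was at 4.12 on the miR-130b array and 5.75 on the EV array, a difference of -1.63. Probe set 209560_s_at was below the floor on the miR-130b array and counted as measured by the EV array alone. The mean of the 2 falls past the 1.5-fold line on the lower side, but their signs are opposite, so DLK1 cannot be given a direction.

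All measured receptor probe sets were lower on the miR-130b array, by small amounts. NOTCH2 had the largest difference of the 3 receptors. Its brightest probe set, 202443_x_at, was at 8.56 on the miR-130b array and 8.86 on the EV array, a difference of -0.30. Probe set 212377_s_at was at 7.94 on the miR-130b array and 8.24 on the EV array, also -0.30, and 210756_s_at at 6.71 on the miR-130b array and 7.35 on the EV array, -0.64. The last of these, 1.56-fold lower, was the only probe set of the 9 genes other than JAG1 past 1.5-fold, and 2.53% of all measured probe sets had a difference at or below it. The 3 measured NOTCH2 probe sets thus ranged from -0.64 to -0.30 with an SD of 0.196, while the fourth, 202445_s_at, was below the floor on both arrays with a difference of 0.04. Of 2511 genes with at least 3 measured probe sets, 38 (1.51%) had every one of them at or below -0.30, NOTCH2 among them. That cutoff is a NOTCH2 value, so NOTCH2 meets it by construction, and genes with more probe sets meet it less readily. NOTCH2 has partial copies, the NOTCH2NL genes, so reads of its probe sets are uncertain where the copies share sequence.

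NOTCH3 and NOTCH1 differed less. NOTCH3 was at 6.05 on the miR-130b array and 6.19 on the EV array in 203238_s_at, a difference of -0.15. Its probe set 203237_s_at was at 4.94 on the miR-130b array and 5.13 on the EV array, a difference of -0.19. NOTCH1 had 1 measured probe set, 218902_at, at 5.03 on the miR-130b array and 5.17 on the EV array, a difference of -0.14. Its other probe set, 223508_at, held the same value, 4.43, on both arrays. The NOTCH1 and NOTCH3 differences are smaller in size than the pooled SD between probe sets of a gene (0.202) but larger than the median SD (0.122). Of measured genes, 17.6% and 16.7% had a difference at or below those of NOTCH1 and NOTCH3.

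The DNA-binding partner of the cleaved receptor, RBPJ, was bright on both arrays. Probe set 211974_x_at was at 9.95 on the miR-130b array and 9.998 on the EV array, a difference of -0.05. Probe set 207785_s_at was at 8.47 on the miR-130b array and 8.74 on the EV array, a difference of -0.27, and 229540_at was below the floor at 3.73 on the miR-130b array and 3.75 on the EV array. The 2 measured RBPJ probe sets therefore lie 0.22 apart in their difference. The coactivator gene MAML2 had no usable signal: 235106_at was at 3.96 on the miR-130b array and 3.86 on the EV array, and 235457_at at 3.55 on the miR-130b array and 3.73 on the EV array. Its related coactivator gene MAML1 was measured and differed by 0.13, and MAML3 by -0.06, with 0.27 and -0.02 in its 2 other probe sets.

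Among the effector genes, HEY1 had the largest difference and both of its probe sets gave it. Probe set 44783_s_at was at 6.29 on the miR-130b array and 6.74 on the EV array, 1.36-fold lower, a difference of -0.45. Probe set 218839_at was at 5.80 on the miR-130b array and 6.16 on the EV array, 1.28-fold lower, a difference of -0.36. Their SD was 0.065, and 132 of the 6047 genes with at least 2 measured probe sets (2.18%) had every probe set at or below -0.36. That cutoff is a HEY1 value, so HEY1 meets it by construction, and genes with more probe sets meet it less readily. By its brightest probe set, 3.79% of measured genes were at or below HEY1, which is short of the 1.5-fold line.

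HES1, a widely used readout of Notch activity, differed little. Probe set 203394_s_at was at 8.49 on the miR-130b array and 8.61 on the EV array, a difference of -0.12. Probe set 203395_s_at was at 6.53 on the miR-130b array and 6.63 on the EV array, a difference of -0.10. The third, 203393_at, lay below the floor and differed by -0.12, at 4.16 on the miR-130b array and 4.28 on the EV array. The 2 measured HES1 probe sets had an SD of 0.014, but 20.1% of measured genes had a difference at or below that of HES1. HEYL had probe sets of opposite sign, with 220662_s_at at 5.55 on the miR-130b array and 5.63 on the EV array (-0.09) and 226828_s_at at 5.64 on the miR-130b array and 5.47 on the EV array (0.17). HEYL therefore has no direction in these data.

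**Figure D3:**
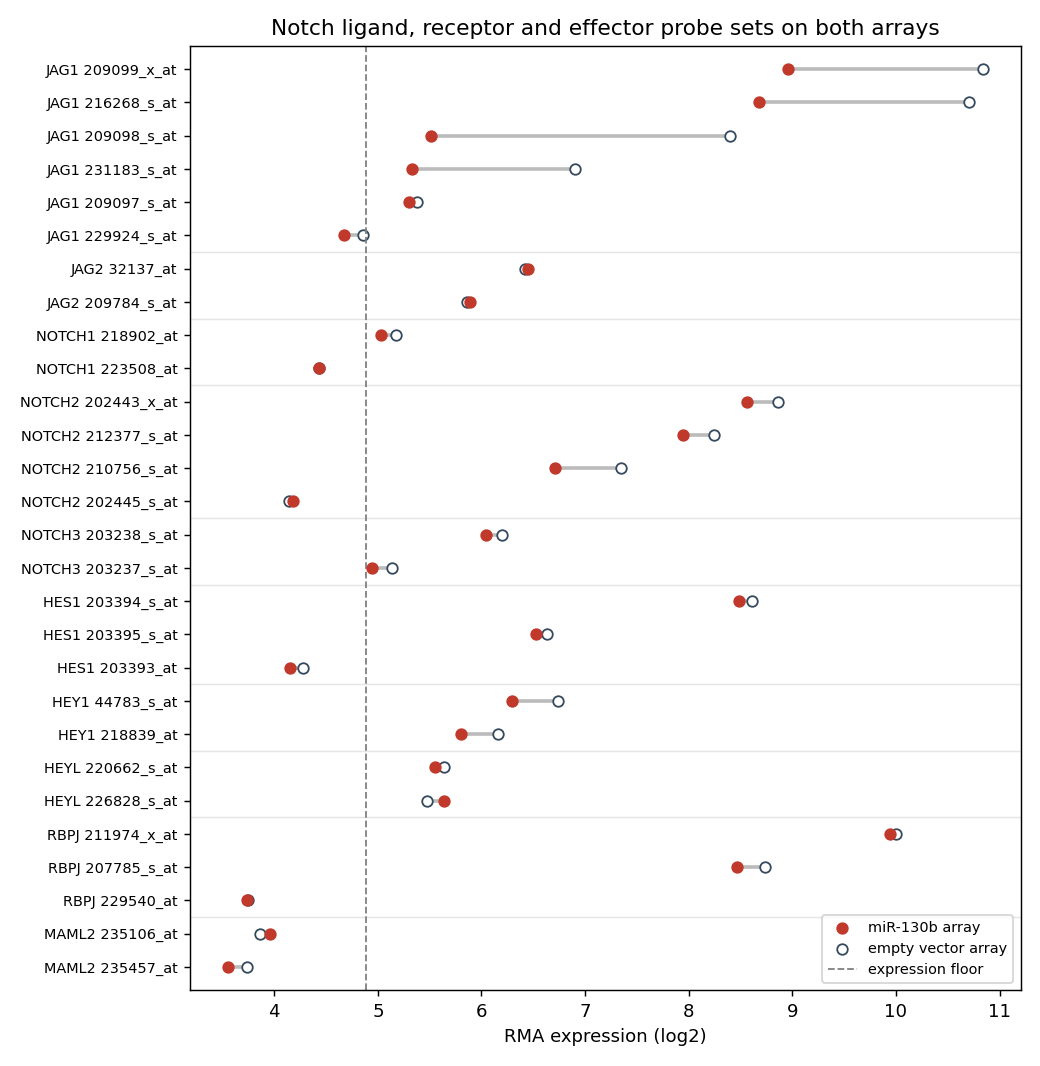
RMA expression (log2) of all 28 probe sets of the 10 genes on the miR-130b array (filled red) and the EV array (open circle), 1 array each, with the expression floor dashed at 4.88. The long gaps are those of 4 JAG1 probe sets, while the 16 measured probe sets of the 8 other measured genes differ by -0.64 to 0.17.

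Taken by probe set, 18 of the 21 measured probe sets were lower on the miR-130b array, 5 of them of JAG1, and 3 were higher. Of all measured probe sets, 35.1% had a difference at or below -0.05 and 51.1% one at or below 0.03. By gene, 8 of the 9 measured genes were lower in their brightest probe set, against 41.9% of all measured genes lower by any amount. At 1.5-fold the count was 5 of 21 probe sets lower and 0 higher, against 2.83% of all measured probe sets lower, and 4 of these 5 belong to JAG1. Without JAG1 the count was 1 of 16 probe sets. Probe sets of a gene share their RNA and often their transcript, so these are not independent counts, and the 10 genes were chosen with earlier results of these arrays known. Outside JAG1, HEY1 and NOTCH2, every measured probe set except 1 of RBPJ (-0.27) differed by less than 0.202.

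**Figure D4:**
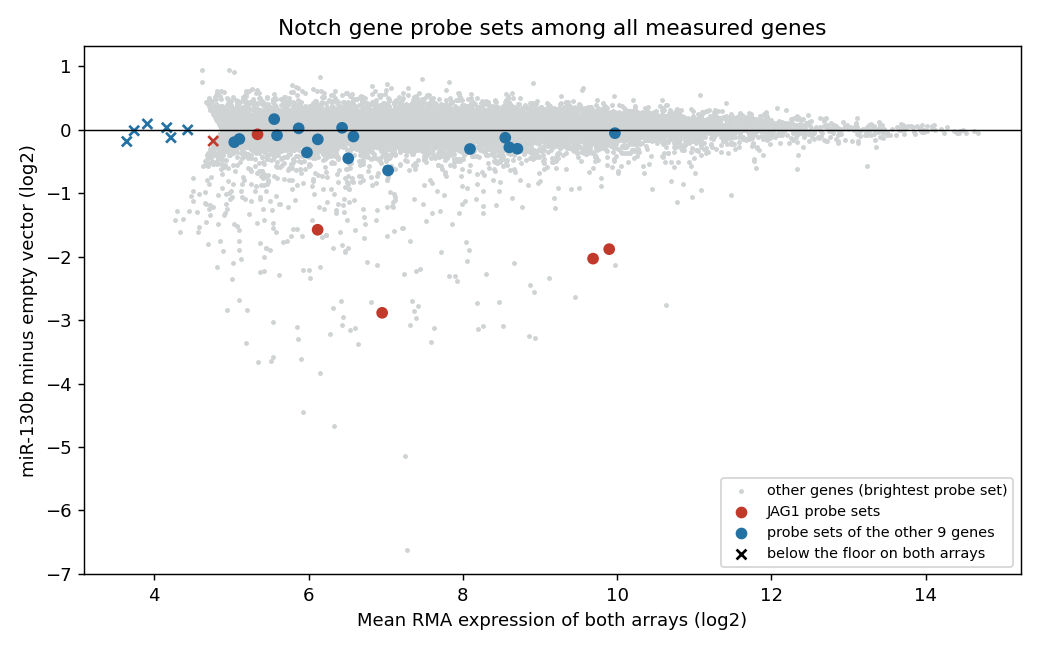
Difference miR-130b minus EV (log2) against the mean RMA expression of both arrays (log2). Grey points are the measured genes, each by its brightest probe set, red points the JAG1 probe sets and blue points those of the other 9 genes, with crosses for probe sets below the floor on both arrays. The JAG1 points at -1.57 to -2.88 lie below the bulk of the grey points, and NOTCH2 at -0.64 is the lowest blue point.

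The wider pathway was set out in 71 genes by role, of which 61 were measured. By the brightest probe set, JAG1 was the only one of the 61 at least 1.5-fold lower and 0 were at least 1.5-fold higher, against 2.68% and 0.294% of all measured genes. Their median difference was -0.02, against 0.03 over all measured genes. Outside the 10 genes, 25 of 52 measured pathway genes were lower and 26 higher, with a median of 0.00, and PSEN2, a gamma-secretase subunit gene, had the same value on both arrays. That is 48.1% lower among these 52 genes, beside 8 of the 9 measured genes of the set and 41.9% of all measured genes, and the contrast was not tested.

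By role, no step of the pathway other than the ligand JAG1 held a gene whose brightest probe set was past 1.5-fold. Of all 106 measured probe sets of pathway genes outside the set, 3 were past 1.5-fold in either direction. Lower were that of DLK1 above and 204872_at of the corepressor gene TLE4, and higher was 229419_at of the ubiquitin ligase gene FBXW7. Over all measured probe sets 2.83% were at least 1.5-fold lower. The share at least 1.5-fold higher was not counted, so the 3, taken in both directions, have no matching share beside them. TLE4 was at 4.29 on the miR-130b array and 5.28 on the EV array in that probe set, a difference of -0.99, beside 0.05 in its brightest. FBXW7 was at 6.56 on the miR-130b array and 5.93 on the EV array in that probe set, a difference of 0.63, beside 0.02 in its brightest and -0.05 in the third. Neither gene therefore has a direction. The receptor NOTCH4 differed by -0.20 in its 1 measured probe set, near the floor at 4.95 on the miR-130b array and 5.16 on the EV array. All 4 receptor genes were thus lower, with a median of -0.18, beside 41.9% of all measured genes lower by any amount. Of 5 genes that glycosylate the receptor, LFNG, a Fringe enzyme, differed by 0.30 and POFUT1, which adds O-fucose, by -0.13. Among 8 measured genes of receptor cleavage, ADAM17, one of the proteases that cut the bound receptor, differed by 0.18 and FURIN, which cuts the receptor precursor, by -0.21. The protease gene ADAM10, at 10.39 on the miR-130b array and 10.34 on the EV array, differed by 0.05 in its brightest probe set. Its 2 other measured probe sets differed by 0.02 and -0.52, with 214895_s_at at 7.59 on the miR-130b array and 8.12 on the EV array. Among 12 genes of ubiquitination and endocytosis, the ubiquitin ligase genes DTX3L and ITCH differed by -0.39 and 0.24, with -0.36 to 0.23 in the other measured probe sets of ITCH. MIB1, whose ligase activity lets ligands signal, differed by -0.30 in its brightest probe set, but its 2 other measured probe sets differed by -0.13 and 0.35. In the nuclear complex, the acetyltransferase genes KAT2B and EP300 differed by -0.33 and 0.28. Of 9 corepressor genes, TLE1, a Groucho-type corepressor, differed by -0.23, with -0.41 to 0.18 in its other measured probe sets, and CTBP2 by 0.12, with -0.03 to 0.23. Of 8 measured target genes HEY1 was lowest and HES4 highest, at 0.06, and the feedback inhibitor gene NRARP, at 7.17 on the miR-130b array and 7.16 on the EV array, differed by 0.01.

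**Figure D5:**
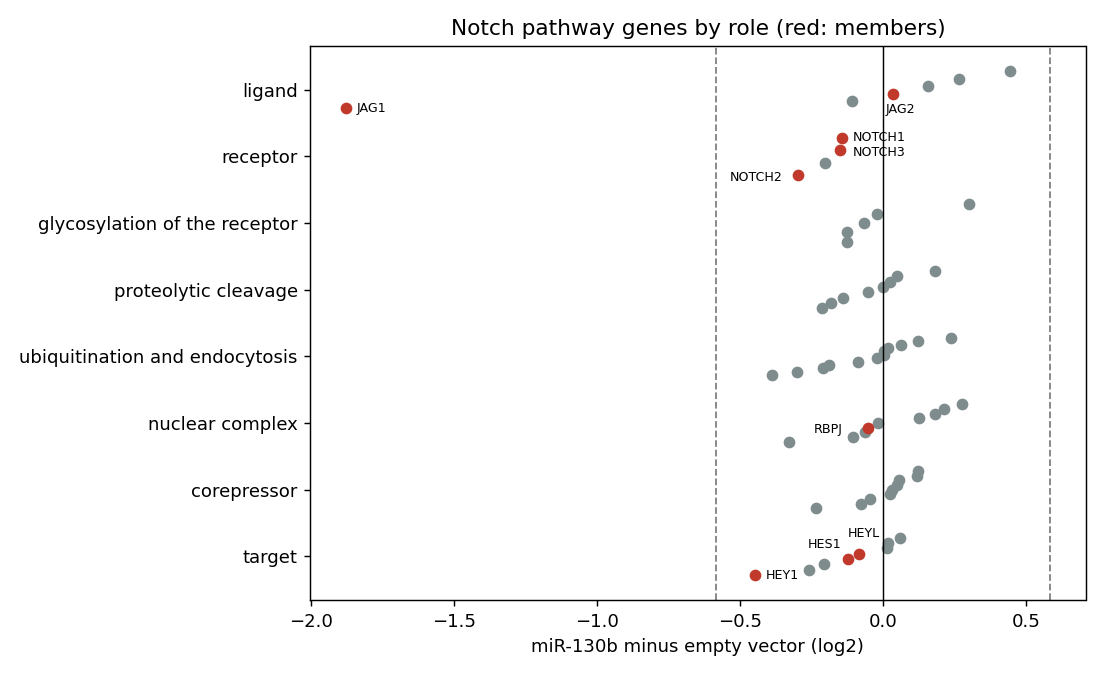
Difference miR-130b minus EV (log2) of the 61 measured Notch pathway genes, 1 point per gene by its brightest probe set, grouped by role, with the 9 measured genes of the set in red and dashed lines at 1.5-fold. JAG1 at -1.88 is the only gene outside the lines, and HEY1 at -0.45 is the next lowest.

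The promoters of the gene that differed and of HES1 and HEYL, 2 effector genes that did not pass 1.5-fold, are shown because RBPJ binds the letters TGGGAA. Each is the RefSeq window (GRCh38.p14) from 250 bases before to 50 after the gene's start, on the gene's strand, 5′ to 3′, with TGGGAA or its reverse complement in capitals. They lie at chr20:10673950-10674249 (JAG1, minus strand), chr3:194135898-194136197 (HES1, plus strand) and chr1:39639594-39639893 (HEYL, minus strand).
JAG1: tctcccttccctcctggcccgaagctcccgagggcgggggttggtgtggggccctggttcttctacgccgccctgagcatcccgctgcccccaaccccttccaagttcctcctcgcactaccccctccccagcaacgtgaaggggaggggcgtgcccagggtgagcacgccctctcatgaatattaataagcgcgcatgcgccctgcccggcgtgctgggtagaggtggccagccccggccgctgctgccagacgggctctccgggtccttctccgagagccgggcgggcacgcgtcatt
HES1: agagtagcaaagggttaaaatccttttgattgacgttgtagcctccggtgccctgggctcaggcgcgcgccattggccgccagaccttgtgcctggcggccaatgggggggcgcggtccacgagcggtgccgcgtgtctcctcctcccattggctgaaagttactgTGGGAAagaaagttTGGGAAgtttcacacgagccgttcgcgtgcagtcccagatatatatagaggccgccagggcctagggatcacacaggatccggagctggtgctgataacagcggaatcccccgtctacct
HEYL: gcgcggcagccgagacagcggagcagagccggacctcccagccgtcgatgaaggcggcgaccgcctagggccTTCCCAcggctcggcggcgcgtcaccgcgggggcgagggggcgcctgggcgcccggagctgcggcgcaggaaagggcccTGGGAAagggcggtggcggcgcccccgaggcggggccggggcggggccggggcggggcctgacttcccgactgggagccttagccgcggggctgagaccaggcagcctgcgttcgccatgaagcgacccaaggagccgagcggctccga
The HES1 window holds TGGGAA at 2 places, starting 84 and 70 bases before the start and both on the gene's strand. The HEYL window also holds it at 2 places, starting 178 bases before the start on the opposite strand and 99 before it on the gene's strand. The JAG1 window holds none. Of all 35116 promoter windows, 24.0% held TGGGAA at least once and 3.80% at 2 or more places, counted on both strands. The table had windows for 9 of the 10 genes, 13 windows in all because RBPJ has 5 starts. It had none for HEY1, so the effector gene with the largest difference was not covered. Of those 13, 3 (23.1%) held it: HES1, HEYL and 1 of the RBPJ starts, each at 2 places. A match is a description of the letters and says nothing of binding in these cells.

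With 2 arrays, likeness to JAG1 is only likeness of 1 difference. The 4 measured genes nearest to the JAG1 difference of -1.88 were GPRC5B (-1.89), COL12A1 (-1.89), MBNL3 (-1.89) and FAM171A1 (-1.86). GPRC5B, at 4.56, and COL12A1, at 4.15, were below the floor on the miR-130b array and counted as measured by the EV array alone. MBNL3, the brightest of them on the EV array, was at 7.13 on the miR-130b array and 9.03 on the EV array.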

How the data were processed

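The authors deposited log2 expression values of 54675 probe sets for each array. The submitters' processing notes name RMA and no version, and its settings were not given in the sources used here. RMA gives the arrays a shared distribution and compresses the fold of dim probe sets. The column medians were 4.88 for miR-130b and 4.89 for EV. The number of arrays limits the precision.

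Gene names came from the platform annotation kept by GEO, which gave 41091 of the 54613 non-control probe sets 1 symbol, 1801 several and 11721 none. Entrez identifiers of 41037 matched RefSeq, with 0 symbols changed. The difference miR-130b minus EV was taken per probe set, and genes were counted at 1.5-fold as a rule of size. The floor, the representative probe set and the error between probe sets are given with the results. The computation was tested on simulated data.

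The genes, the pathway list and the rules were chosen with earlier results of these data known. Named are the 10 genes, each pathway gene past 1.5-fold, the lowest and highest gene per role, and the 4 genes nearest to JAG1. DLL1, DLL3, DLL4, the Mastermind genes, MIB1, ADAM10, TLE4, FBXW7, PSEN2, NOTCH4 and NRARP were added after their values were seen. The alternatives tried were to drop the floor or raise it to the 75th percentile (6.98), averaging a gene's probe sets, leaving out suffixed probe sets, loess (span 0.3) and median centring. Tools were Python 3.11.15, numpy 2.4.6, pandas 2.3.3, statsmodels 0.14.6 and matplotlib 3.10.9.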

Additional observations from a re-analysis of the deposited data

How the results depend on the processing

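With 1 array per condition no replicate could be left out, and no paired analysis was possible because each condition has 1 sample. A value counted as moved when it shifted by over 0.202, the SD between probe sets of a gene, and a count when it changed by over 1.5 times. The SD among JAG1 probe sets was 0.542, not 1.03, with the floor at the 75th percentile, which keeps 3 of its probe sets. With the mean of all measured probe sets 2 pathway genes were at least 1.5-fold lower in place of 1, the second being DLK1. Without probe sets with the suffix _x_at or _s_at, 0 of the 3 genes left and 0 of 44 pathway genes were at least 1.5-fold lower, since no JAG1 probe set remains. In that setting 263 of all 10175 measured genes were. In an alternative chosen after seeing the data, leaving out only _x_at probe sets, RBPJ had -0.27 and JAG1 -2.03. In the settings that keep it, JAG1 was lower by at least 1.5-fold. Of the other values, 42 among the main results and 45 among single genes moved by less than these limits.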

Other observations

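One further probe set names NOTCH2 together with 4 NOTCH2NL genes, 227067_x_at, and was left out of the set for its 5 symbols. It was higher by 0.18, at 8.64 on the miR-130b array and 8.46 on the EV array, while the 3 measured probe sets of NOTCH2 alone differed by -0.64 to -0.30. It cannot be assigned to one of the 5 genes.

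The measured genes that neighbour JAG1 on chromosome 20 in RefSeq (GRCh38.p14 gene order) were looked up after the JAG1 values were seen, 4 on each side. On one side ANKEF1, SNAP25, MKKS and SLX4IP differed by 0.21, 0.19, -0.04 and 0.09. On the other side BTBD3, TASP1, ESF1 and NDUFAF5 differed by -0.08, 0.38, -0.78 and -0.21. The 2 genes next to JAG1, SLX4IP and BTBD3, were thus within 0.1 of no difference, and ESF1 was the 1 neighbour past 1.5-fold.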
